A study of Oryza sativa Japonica Group with 9 samples.

Results

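Among 55986 rice gene models, 52 had transcript levels that were clearly lower in the developing grains of both GSK5-edited and ARF4-edited plants than in those of wild type (WT). They were chosen by their measured values. In each of the 3 WT libraries such a gene had at least 2 FPKM (fragments scaled by gene length and by each library's mapped total), and in each of the 6 edited libraries it stayed under 0.5 times the lowest WT value. Of the 17685 genes with at least 2 FPKM in every WT library, these 52 were 0.294%. The lower level against WT is therefore how the genes were picked and not a finding, and it is described here without a test.

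The libraries came from caryopses of the japonica cultivar Nipponbare, 3 each of WT, of plants with the genotype GSK5-/- and of plants with the genotype ARF4-/-. The sample labels put the grains at day 9 after flowering, and the series text at days 7 to 8. The edited alleles, the number of independent lines and the number of plants per library are not known here. Whether the 3 libraries of one genotype stem from separate plants is not stated either, so each p-value speaks of library-to-library spread, possibly technical.

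GSK3/SHAGGY-like kinases are protein kinases that act in brassinosteroid and other growth signalling. Auxin response factors such as ARF4 bind DNA and raise or lower the transcription of auxin-regulated genes. The study's title places the GSK3-like kinase at a grain weight locus where it holds grain size down. A gene with a low level in both edited genotypes is one whose transcript lay on the same side of WT after an edit in the kinase and after an edit in the transcription factor. Genes are known here only by their MSU identifiers, in which the digits before the letter g give the chromosome and those after it an order along that chromosome. Neither the deposited table nor the reference gene table pairs any of the 52 identifiers with a gene name, so no function is given for them.

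Several facts of the libraries bear on all values below. Relative depth, read from the steps between low values, was 94.6 to 100% of the deepest library in WT. It was 71.0 to 88.6% in GSK5, lowest in replicate 3, and 79.8 to 93.0% in ARF4. Every edited library was thus shallower than every WT library, and absolute depth is unknown. Whether depth bears on the low edited values was not tested. The locus taken as ARF4 (LOC_Os01g70270) had 47.6 to 54.2 FPKM in the ARF4-edited libraries and 67.6 to 92.5 in WT. The locus taken as GSK5 (LOC_Os03g62500) had 31.1 to 34.0 FPKM in the GSK5-edited libraries and 32.1 to 48.0 in WT, and an edit need not alter a transcript level. Neither is among the 52 genes. Marker loci were taken from general knowledge and are not named by the table. Among 8 endosperm markers with values, Wx (granule-bound starch synthase) had 0.22 to 4.16 FPKM over all libraries and NF-YB1 at most 0.48. SSIIa (a soluble starch synthase) had at most 0.92 and RPBF (a storage protein regulator) at most 2.58. These markers of filling endosperm were low, but the list did not behave as one. ISA1 had 5.48 to 14.3 FPKM and RISBZ1, a regulator of storage protein genes, 3.37 to 11.6. SBEIIb, a starch branching enzyme, had 30.7 to 51.5 FPKM, the pericarp marker CAB2R (a chlorophyll-binding protein) 429.6 to 1504, and MADS29, a transcription factor of degenerating maternal tissue, 22.5 to 78.6. Summed over the 8 endosperm markers the level was 66.7, 80.6 and 95.8 FPKM in WT replicates 1, 2 and 3, 143 to 164 in GSK5 and 81.0 to 86.3 in ARF4, with 3 markers listed at 0 in at least 1 library. The locus taken as AGPL2, a subunit of the enzyme that makes ADP-glucose, made up most of the higher sum in GSK5. It had 81.2 ± 13.2 FPKM there against 24.8 ± 1.99 in WT (SD, n = 3, limma adjusted p = 0.00169). Mean RISBZ1 stood at 3.96 FPKM in GSK5, 9.47 in ARF4 and 5.15 in WT. RPBF was called higher in ARF4, at a mean of 2.15 FPKM against 0.027 in WT (limma adjusted p = 0.00714). Sums were 871 to 1318 in WT, 909 to 1069 in GSK5 and 1161 to 2551 in ARF4 for 5 green pericarp markers, and 5.79 to 24.5, 13.1 to 15.4 and 16.3 to 24.4 for 3 embryo markers, none of these at 0. The pericarp markers did not move together: CAB1R, another chlorophyll-binding protein, had 116 FPKM in WT replicate 3, 26.0 in replicate 2 and less in replicate 1, and a mean of 438 in ARF4 (limma adjusted p = 0.0601 against WT). One Rubisco small subunit locus (LOC_Os12g17600) was called lower in ARF4, at 28.9 against 111 FPKM in WT (limma adjusted p = 0.0385), and RCA, the Rubisco activase, lower in GSK5, at 109 against 198 (limma adjusted p = 0.0399). None of these markers is among the 52 genes. These are bulk samples, in which fewer cells of a type and less RNA per cell cannot be told apart, and the part of tissue make-up in the levels below was not tested.

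WT replicate 3 decided much of the membership. Without it the same rule picked 218 genes, all 52 among them. Leaving out any other single library gave 53 to 67 genes. Dropping a library can only loosen the rule, so all 52 had to remain each time, which is no sign of stability. The lowest WT value was that of replicate 3 in 45 of the 52 genes.

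In WT the 52 genes covered a wide range of levels, with group means from 2.80 to 563 FPKM and a median of 17.7. The mean was at least 100 FPKM in 7 genes (13.5%), compared with 4.95% of all genes that reached 2 FPKM in every WT library, and under 10 FPKM in 19 (36.5% against 33.9%). The set thus held a few abundant transcripts and many at moderate level. Per library, the median over the 52 genes was 27.1, 15.5 and 11.4 FPKM in WT replicates 1, 2 and 3. The GSK5 libraries had medians of 2.88, 1.95 and 2.56 FPKM, and the ARF4 libraries 2.88, 2.53 and 2.70. Both genotypes had to lie under the same limit for each gene, so the likeness of these edited medians is partly set by the choice.

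**Figure D1:**
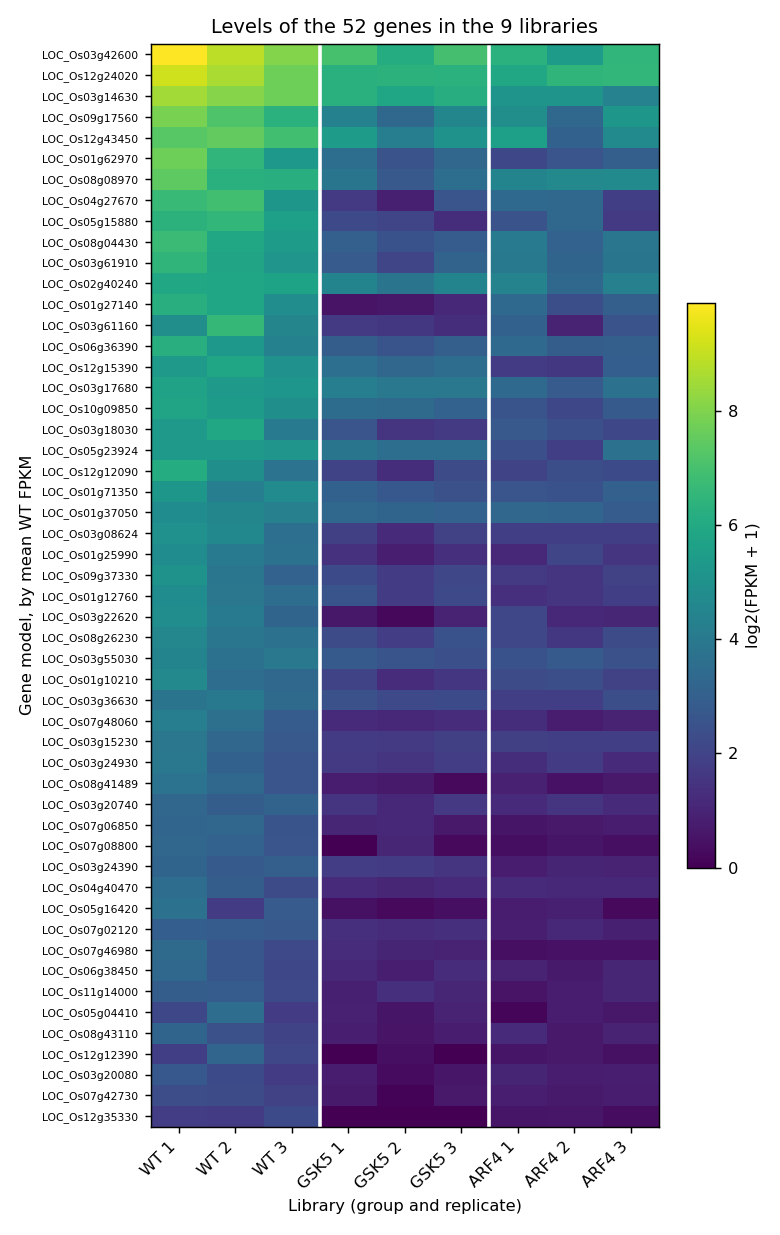
Levels of the 52 genes in each of the 9 libraries as log2(FPKM + 1), with 1 row per gene in order of mean WT level and white lines between WT, GSK5-edited and ARF4-edited libraries. The 3 WT columns are brightest, as the choice of genes requires, and WT replicate 1 is the brightest of them in 41 rows.

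The gene of highest level was LOC_Os03g42600, on chromosome 3, which had 944, 481 and 265 FPKM in WT replicates 1, 2 and 3. It had 128, 69.2 and 125 FPKM in the GSK5 libraries and 79.3, 42.6 and 89.6 in the ARF4 libraries. Its WT mean of 563 ± 347 (SD, n = 3) was 5.25 times that in GSK5 and 7.99 times that in ARF4, and the libraries of the 2 edited genotypes overlapped. LOC_Os12g24020 had 579, 395 and 209 FPKM in WT, 75.6, 80.2 and 77.5 in GSK5 and 57.5, 87.1 and 93.4 in ARF4. Its level in the 3 GSK5 libraries was nearly the same, at 77.8 ± 2.30 FPKM (SD, n = 3), against 79.3 ± 19.2 in ARF4. LOC_Os03g14630 had 360.3, 269 and 205 FPKM in WT, 77.0, 56.3 and 70.6 in GSK5 and 33.3, 33.2 and 19.6 in ARF4. Here each ARF4 library lay under each GSK5 library, and the WT mean was 4.09 times the GSK5 mean and 9.67 times the ARF4 mean.

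LOC_Os09g17560 had 239, 143 and 77.7 FPKM in WT, 19.1, 8.96 and 22.0 in GSK5 and 28.8, 9.05 and 36.5 in ARF4. LOC_Os12g43450 had 160.0, 182 and 117 FPKM in WT, 43.3, 17.6 and 32.5 in GSK5 and 46.6, 7.35 and 24.9 in ARF4. In both genes replicate 2 was the lowest library of each edited genotype. LOC_Os01g62970 had 210.0, 88.9 and 37.7 FPKM in WT, so that its WT libraries spanned a 5.57-fold range, with 11.0, 4.77 and 8.67 in GSK5 and 3.44, 5.03 and 6.98 in ARF4. Its WT mean was 21.8 times its ARF4 mean, the highest such ratio among the 52 genes.

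LOC_Os08g08970 had 171, 75.4 and 73.5 FPKM in WT, 13.2, 5.85 and 11.0 in GSK5 and 20.9, 24.1 and 24.5 in ARF4. LOC_Os08g04430 had 105, 60.6 and 42.7 FPKM in WT, 7.27, 4.69 and 6.38 in GSK5 and 16.0, 7.63 and 13.9 in ARF4. These genes of chromosome 8 shared an order in which every GSK5 library lay under every ARF4 library. LOC_Os04g27670 had 104, 116 and 36.2 FPKM in WT, 2.23, 0.82 and 5.16 in GSK5 and 9.33, 8.83 and 2.54 in ARF4. LOC_Os05g15880 had 80.6, 92.9 and 46.6 FPKM in WT, 3.56, 3.20 and 1.42 in GSK5 and 4.73, 9.08 and 2.18 in ARF4. In both of these the edited libraries overlapped, and the WT mean was 31.2 and 26.9 times the GSK5 mean and 12.4 and 13.8 times the ARF4 mean.

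The widest distance between the lowest WT and the highest edited library was found mostly in genes of modest level. LOC_Os08g41489 had 12.7, 8.81 and 5.10 FPKM in WT, 0.67, 0.64 and 0.20 in GSK5 and 0.90, 0.39 and 0.59 in ARF4. Its highest edited value was 0.18 times its lowest WT value, the lowest ratio of all 52, followed by 0.19 for LOC_Os05g15880. LOC_Os07g48060 had 17.6, 11.6 and 6.33 FPKM in WT, 1.30, 1.12 and 1.36 in GSK5 and 1.42, 0.70 and 0.99 in ARF4. LOC_Os07g06850 had 8.25, 8.71 and 4.88 FPKM in WT, 1.10, 1.23 and 0.61 in GSK5 and 0.48, 0.60 and 0.75 in ARF4. LOC_Os03g08624 had 30.8, 23.3 and 11.1 FPKM in WT, 2.71, 1.28 and 2.85 in GSK5 and 2.59, 2.60 and 2.52 in ARF4. In these 3 genes the GSK5 and ARF4 libraries overlapped.

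Values of exactly 0 occurred in 3 of the 52 genes, always in GSK5 libraries, and 0 in this table can also be a failed estimate. LOC_Os12g35330 was listed at 0 in all 3 GSK5 libraries, with 2.45, 2.27 and 3.68 FPKM in WT and 0.46, 0.50 and 0.27 in ARF4. LOC_Os12g12390 was listed at 0 in GSK5 replicates 1 and 3 and had 0.33 in replicate 2, with 2.59, 8.41 and 3.25 FPKM in WT and 0.47, 0.61 and 0.37 in ARF4. LOC_Os07g08800 was listed at 0 in GSK5 replicate 1 and had 1.08 and 0.19 in replicates 2 and 3, with 8.62, 7.65 and 5.02 FPKM in WT and 0.29, 0.48 and 0.34 in ARF4. In all 3 genes the ARF4 libraries held low values above 0. In all, 9 genes were under 1 FPKM in every GSK5 library, 9 in every ARF4 library and 6 in all 6 edited libraries.

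At the threshold the genes were less distinct. The 3 just inside were LOC_Os06g36390, LOC_Os03g17680 and LOC_Os01g37050, whose highest edited values were 0.497, 0.494 and 0.484 times the lowest WT value. LOC_Os10g08474, LOC_Os06g04920 and LOC_Os08g08160 were just outside, at exactly 0.5, 0.501 and 0.502. LOC_Os01g37050 had 27.0, 22.4 and 18.8 FPKM in WT, 9.11, 8.19 and 7.64 in GSK5 and 8.47, 8.25 and 6.30 in ARF4. LOC_Os10g08474 had 8.75, 4.68 and 3.04 FPKM in WT, 1.52, 1.17 and 1.33 in GSK5 and 1.25, 1.13 and 1.46 in ARF4, so that one gene left out stood at lower edited values relative to its WT mean than one let in.

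The size of the difference from WT was described per genotype. For the 51 genes with a GSK5 level above 0, the WT mean was 2.66 to 70.7 times the GSK5 mean, with a median of 6.78, and at least 10 times in 16 genes. Against ARF4 all 52 genes had a ratio, from 2.96 to 21.8 with a median of 7.11, at least 10 in 12 genes. On the log2(FPKM + 1) scale, which understates the change of low genes, the median change was -2.02 in GSK5 and -2.19 in ARF4. Over all 23385 genes tested these medians were 0.11 and 0.05, and over the genes with at least 2 FPKM in every WT library 0.07 and 0.00. Of all genes tested, limma called 0.701% lower in GSK5 against WT and 2.02% lower in ARF4 against WT at an adjusted p under 0.05. No count of such calls among the 52 genes is given, since the choice of the genes used these contrasts, which share their WT libraries.

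The WT libraries differed among themselves in these genes more than elsewhere. WT replicate 1 was the highest of the 3 in 41 of the 52 genes (78.8%), whereas it was the highest in 35.5% of the 17685 genes that reached 2 FPKM in every WT library. Replicate 3 was the lowest in 45 genes (86.5%), compared with 33.8%. The full order, replicate 1 over 2 over 3, held in 36 genes (69.2%), compared with 24.8%. Replicate 1 had a median of 2.31 times the level in replicate 3, against 0.946 times over all those genes, and it was at least 2 times as high in 28 of the 52 genes (53.8% against 6.11%). The choice set the lowest WT value but not the order of the WT libraries, and no test of this difference was made.

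**Figure D2:**
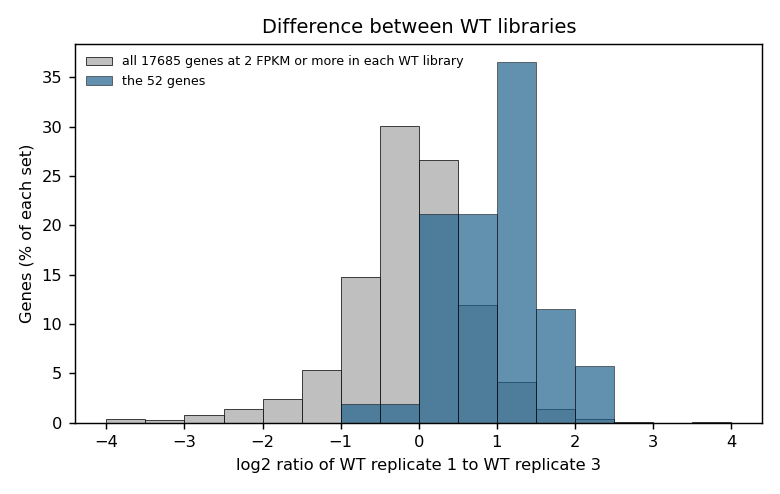
Log2 ratio of WT replicate 1 to WT replicate 3 (horizontal axis) for the 52 genes (blue) and for all 17685 genes with at least 2 FPKM in each WT library (grey), as the percentage of each set per bin (vertical axis). The 52 genes lie mostly above 0, with a median ratio of 2.31 on the linear scale, and values beyond the axis are drawn in the outermost bins.

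The highest ratios of WT replicate 1 to replicate 3 were in LOC_Os01g62970, given above, in LOC_Os12g12090 and in LOC_Os09g37330. LOC_Os12g12090 had 67.7, 29.6 and 12.5 FPKM in WT, 3.10, 1.43 and 3.82 in GSK5 and 3.12, 4.16 and 3.72 in ARF4. LOC_Os09g37330 had 32.6, 13.8 and 7.73 FPKM in WT, 3.67, 2.33 and 3.31 in GSK5 and 2.19, 1.81 and 2.88 in ARF4. In these genes replicate 3 lay under replicate 1, and the rule set every WT value above every edited one. Their replicate 3 therefore lay between replicate 1 and the edited libraries. LOC_Os05g23924 was by contrast even in WT, at 38.8, 38.3 and 34.6 FPKM, with 13.3, 10.9 and 10.8 in GSK5 and 4.35, 2.53 and 12.1 in ARF4. LOC_Os02g40240, the one gene on chromosome 2, was also even in WT, at 60.1, 55.7 and 51.6 FPKM, with 21.1, 12.8 and 20.9 in GSK5 and 20.2, 8.79 and 19.0 in ARF4. Replicate 2 was the highest WT library in 10 of the 52 genes, among them LOC_Os03g61160, with 28.6, 93.8 and 21.7 FPKM in WT, 2.24, 2.02 and 1.47 in GSK5 and 7.40, 0.98 and 4.81 in ARF4. LOC_Os05g04410 was another, with 3.38, 10.5 and 2.36 FPKM in WT, 0.90, 0.46 and 0.91 in GSK5 and 0.11, 0.74 and 0.54 in ARF4. In both, WT replicate 2 stood well above the other WT libraries. Replicate 3 was the highest WT library in 1 gene, LOC_Os12g35330. Apart from LOC_Os01g62970 and LOC_Os12g35330, the genes of this paragraph were picked after their values were seen.

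Within groups, the median SD of log2(FPKM + 1) over the 52 genes came to 0.59 for WT, 0.24 for GSK5 and 0.28 for ARF4. Over all genes that reached 2 FPKM in every WT library it was 0.24, 0.10 and 0.21. The SD on this scale depends on level, and levels were not matched between groups or gene sets, so these spreads are not strictly comparable. GSK5 replicate 2 was the lowest GSK5 library in 34 of the 52 genes (65.4%), compared with 35.9%. ARF4 replicate 2 was the lowest ARF4 library in 24 genes (46.2%), compared with 31.2%.

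The contrast between the edited genotypes was not used to choose the genes, although the choice caps both from above. It was tested with limma over all 23385 genes. None of the 52 genes passed an adjusted p under 0.05 in GSK5 against ARF4, where 0.483% of all genes tested did. At an unadjusted p under 0.05 there were 12 genes, 7 higher and 5 lower in GSK5, and 13.8% of all genes tested. The libraries of the 2 genotypes did not overlap in 14 of the 52 genes, 7 in each direction, and in 26.3% of all genes tested. All 52 genes passed the filter on low values, but 11 of them did so only with their WT libraries counted, so shares were taken over the other 41, which had at least 1 FPKM in at least 3 edited libraries. Of these 41 none was called, 11 (26.8%) had an unadjusted p under 0.05, and 11 (26.8%) did not overlap. Among all 22697 genes tested with the same edited levels these shares were 13.7% and 26.3%, and their difference from those of the 41 genes was not tested. The group mean was lower in GSK5 in 24 genes and higher in 28, and the median difference was 0.01 on the log2 scale. The median half-width of the 95% confidence interval of a gene's difference was 0.77 on that scale, and since calls used an adjusted p, differences larger than this, such as those given next, were not called either.

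LOC_Os01g27140 came nearest to a call. It had 71.8, 55.4 and 27.8 FPKM in WT, 0.42, 0.54 and 1.23 in GSK5 and 9.34, 4.19 and 6.88 in ARF4. Each GSK5 library was lower than each ARF4 library, by -2.15 on the log2 scale (SE 0.38, 95% confidence interval -3.03 to -1.27), with an adjusted p of 0.0674 in limma. That p lay between 0.0372 and 0.311 over 15 alternatives, and the gene was called in 3 of them, without WT replicate 3 (0.0372), without ARF4 replicate 2 (0.0377) and when limma was fitted to the GSK5 and ARF4 libraries alone (0.0499).

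On the other side, LOC_Os03g24390 had 8.01, 5.96 and 7.00 FPKM in WT, 2.47, 2.37 and 1.84 in GSK5 and 0.69, 1.04 and 0.96 in ARF4. Its GSK5 level was higher by 0.77 on the log2 scale (interval 0.39 to 1.14, limma adjusted p = 0.109). LOC_Os03g14630, given above, was higher in GSK5 by 1.24 (interval 0.63 to 1.85, limma adjusted p = 0.11). In both genes the edited groups did not overlap. LOC_Os12g15390 had 39.3, 55.3 and 31.0 FPKM in WT, 11.1, 8.65 and 10.6 in GSK5 and 2.37, 2.04 and 6.78 in ARF4, a difference of 1.36 (interval 0.54 to 2.19, limma adjusted p = 0.165). Without ARF4 replicate 3, its highest ARF4 library, limma called LOC_Os12g15390 (adjusted p = 0.0181) and LOC_Os05g23924 (adjusted p = 0.0158) higher in GSK5. LOC_Os10g09850 had 53.3, 42.2 and 29.0 FPKM in WT, 10.2, 9.76 and 7.54 in GSK5 and 4.91, 3.37 and 5.95 in ARF4, a difference of 0.84 (interval 0.26 to 1.42, limma adjusted p = 0.212). LOC_Os03g61910 had 87.0, 53.9 and 34.8 FPKM in WT, 6.20, 3.16 and 7.74 in GSK5 and 14.8, 8.04 and 13.5 in ARF4. It lay lower in GSK5 by -0.99 (interval -1.90 to -0.09, limma adjusted p = 0.321), without overlap of the edited groups. LOC_Os08g08970 was lower in GSK5 by -1.19 (interval -2.03 to -0.35, limma adjusted p = 0.221). The genes named in this comparison were, apart from those of highest level, picked after their values were seen.

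The count of genes called in GSK5 against ARF4 over the whole table, 113, moved widely with most libraries left out. It was 187, 64 and 118 without WT replicates 1, 2 and 3, and 10, 11 and 10 without GSK5 replicates 1, 2 and 3. Without ARF4 replicates 1, 2 and 3 it was 2, 383 and 479.

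**Figure D3:**
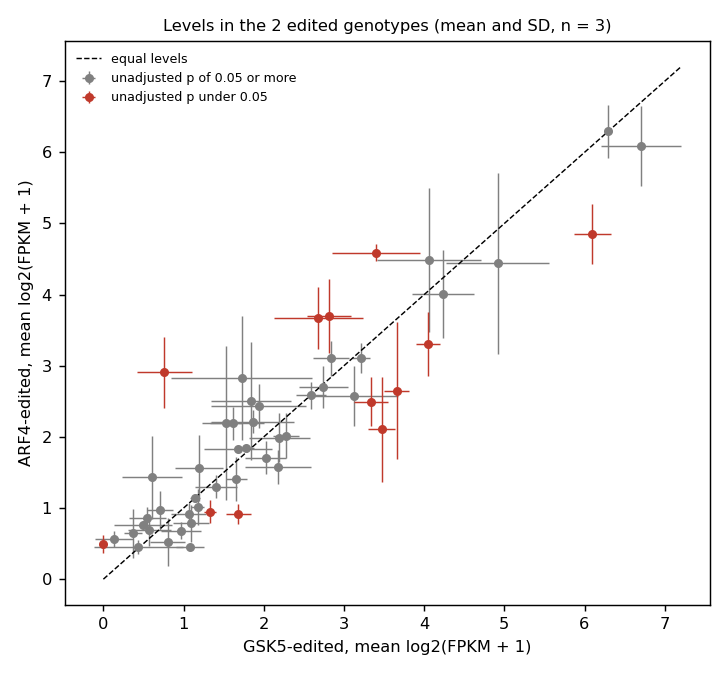
Mean log2(FPKM + 1) of the 52 genes in GSK5-edited (horizontal) and ARF4-edited (vertical) caryopses, with SD bars over 3 libraries, a dashed line of equal levels and the 12 genes with an unadjusted limma p under 0.05 in red. Genes scatter to both sides of the line, and the isolated red point above it on the left is LOC_Os01g27140.

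Placement along the chromosomes was read from the identifiers. Chromosome 3 held 15 of the 52 genes (28.8%), although it held 13.6% of the genes with at least 2 FPKM in every WT library. Chromosome 12 held 6 (11.5% against 5.58%), chromosome 7 also 6 (11.5% against 7.65%) and chromosome 8 held 5 (9.62% against 6.51%). Chromosome 1 held 7 (13.5% against 14.2%) and chromosome 5 held 4 (7.69% against 8.21%). Chromosome 2 held 1 gene (1.92%) with 12.1% of the genes at that WT level, and chromosomes 10 and 11 held 1 each. Chromosomes 4, 6 and 9 held 2 each. Per 1000 genes at that WT level this gave 6.23 on chromosome 3, 6.09 on chromosome 12 and 0.468 on chromosome 2. These shares were not tested.

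**Figure D4:**
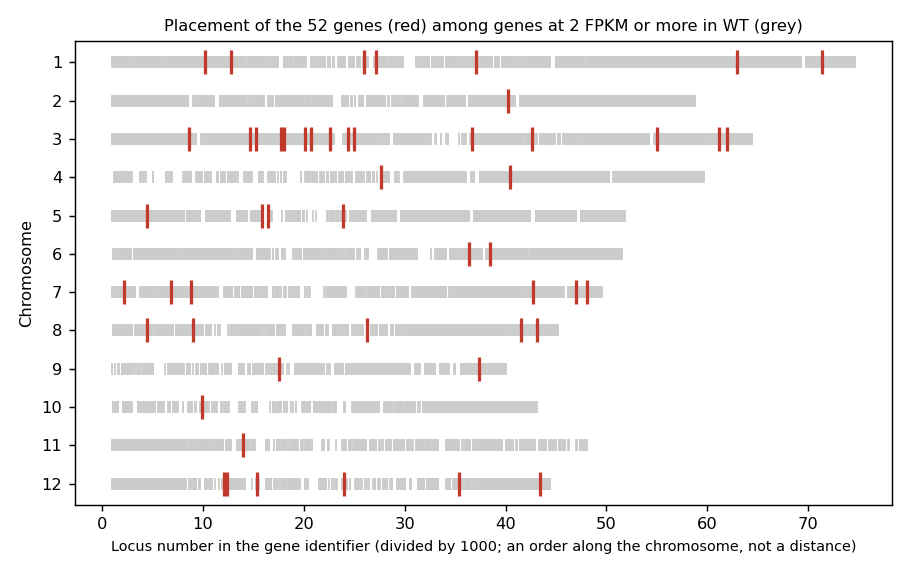
Position of the 52 genes (red) on the 12 chromosomes (vertical axis) by the locus number in their identifiers divided by 1000 (horizontal axis), over all genes with at least 2 FPKM in every WT library (grey). Of the 15 genes on chromosome 3, 9 lie between locus numbers 14630 and 24930.

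No tight cluster was found. A run was defined as 3 or more of the genes on one chromosome with at most 200 locus numbers from each to the next, where most numbers go up in steps of 10, and there was none. The closest pair was LOC_Os12g12090 and LOC_Os12g12390, 300 numbers apart with 8 other genes of at least 2 FPKM in every WT library between them. LOC_Os03g17680 and LOC_Os03g18030 followed, 350 apart with 21 such genes between them, and LOC_Os05g15880 and LOC_Os05g16420 were 540 apart with 1 between them. On chromosome 3 a looser stretch joined 9 genes from LOC_Os03g14630 to LOC_Os03g24930 with at most 2500 numbers between neighbours, a limit set after the placement was seen. These 9 were 60.0% of the genes on chromosome 3, in a stretch with 18.2% of its genes at the WT level.

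Besides LOC_Os03g14630 and LOC_Os03g17680 the stretch held LOC_Os03g18030, with 40.2, 58.9 and 15.6 FPKM in WT, 5.12, 1.84 and 2.22 in GSK5 and 5.79, 4.30 and 3.40 in ARF4. LOC_Os03g22620 had 27.5, 15.9 and 8.20 FPKM in WT, 0.56, 0.16 and 0.94 in GSK5 and 3.30, 1.22 and 1.06 in ARF4. LOC_Os03g20740 had 8.47, 6.53 and 7.86 FPKM in WT, 1.77, 1.16 and 2.09 in GSK5 and 1.27, 1.81 and 1.35 in ARF4. These 3 were picked as examples after their values were seen. The remaining 430 genes of the stretch that reached 2 FPKM in every WT library had a median log2 change of 0.06 in GSK5 and 0.03 in ARF4, and limma called 2 (0.465%) and 4 (0.93%) of them lower. Over all 17633 other genes at that WT level the medians were 0.07 and 0.00 and the shares called lower 0.578% and 2.27%. The medians and the GSK5 share of the stretch were close to these values, whereas its ARF4 share was lower. These differences were not tested.

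Genes next to the 52 were examined because their own levels played no part in the choice of the 52. Their changes nevertheless rest on the same WT libraries as that choice. The nearest gene on either side with at least 2 FPKM in every WT library gave 103 genes, a median of 20 locus numbers away. Their median log2 change was -0.09 in GSK5 and -0.11 in ARF4, against 0.07 and 0.00 over the 17633 other genes at that WT level. It was below 0 in 56 of the 103 (54.4%) in GSK5 and 61 (59.2%) in ARF4, against 41.1% and 49.5%. By limma, 5 of the 103 (4.85%) fell in each edited genotype, against 0.578% and 2.27%. Together 7 genes fell in at least 1 genotype and 3 of them in both (2.91%, against 0.289%). Of the 17633 other genes, 102 were called lower in GSK5, 400 in ARF4 and 51 in both. In ARF4, 1 neighbour rose, where 304 of all 23385 genes tested were called higher. These shares were not compared by a test, and the idea to look at neighbours came after the 52 genes had been seen.

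**Figure D5:**
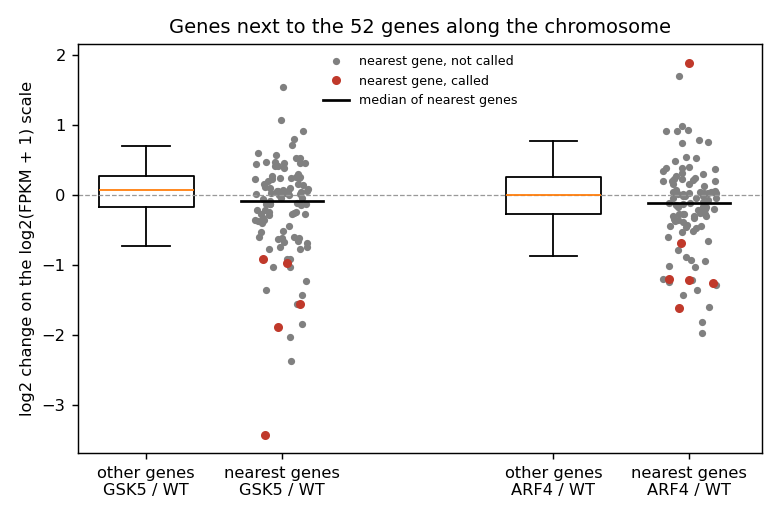
Log2 change against WT on the log2(FPKM + 1) scale of the 103 genes nearest to the 52 genes (points, with those called by limma in red and black bars for their medians) beside boxes for the other genes with at least 2 FPKM in every WT library (median, quartiles and whiskers to the 5th and 95th percentiles). The medians of the nearest genes lie at -0.09 and -0.11, under those of the boxes.

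The 3 neighbours that fell in both genotypes were LOC_Os01g12750, LOC_Os07g06880 and LOC_Os08g04440. LOC_Os08g04440, next in number to LOC_Os08g04430, had 76.4, 59.7 and 46.1 FPKM in WT, 30.3, 30.2 and 29.6 in GSK5 and 23.0, 23.9 and 29.4 in ARF4. Its log2 change was -0.96 in GSK5 (limma adjusted p = 0.0382) and -1.20 in ARF4 (limma adjusted p = 0.0158), with every edited library under every WT library. LOC_Os01g12750, next to LOC_Os01g12760, had 10.8, 8.78 and 8.66 FPKM in WT, 4.90, 4.08 and 4.56 in GSK5 and 5.26, 4.84 and 6.39 in ARF4. It changed by -0.91 in GSK5 (limma adjusted p = 0.0209) and -0.68 in ARF4 (limma adjusted p = 0.0473). LOC_Os07g06880, 30 numbers from LOC_Os07g06850, had 11.5, 9.24 and 7.22 FPKM in WT, 2.46, 2.05 and 2.93 in GSK5 and 2.66, 4.46 and 2.91 in ARF4. Its change was -1.55 in GSK5 (limma adjusted p = 0.0125) and -1.25 in ARF4 (limma adjusted p = 0.0268).

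LOC_Os12g43440 fell in GSK5 and stands next to LOC_Os12g43450, with 109.7, 130.3 and 85.7 FPKM in WT, 41.9, 17.4 and 30.8 in GSK5 and 50.8, 24.9 and 33.1 in ARF4. Library by library its GSK5 and ARF4 values followed the order of those of LOC_Os12g43450. LOC_Os05g15770, 110 numbers from LOC_Os05g15880, also fell in GSK5 (limma adjusted p = 0.0264) and was the most abundant of these neighbours, with 3077, 1609.6 and 992 FPKM in WT, 163, 111 and 218 in GSK5 and 248, 969.6 and 342 in ARF4. Its ARF4 replicate 2 almost reached WT replicate 3, and its change in ARF4 did not pass (limma adjusted p = 0.096). LOC_Os07g02130 and LOC_Os01g71330 fell in ARF4 (limma adjusted p = 0.0268 and 0.0423), whereas LOC_Os07g48090 rose there, from 15.4 ± 3.75 to 60.0 ± 14.8 FPKM (SD, n = 3, limma adjusted p = 0.0138).

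Neighbouring models can be close copies that share reads. No sequence was at hand to examine this, so the values of adjacent pairs are uncertain as separate measurements. Each of the 10 calls of lower level among neighbours was lost in 4 to 11 of 15 alternatives, with log2 changes that stayed below 0. Adjusted p-values over those alternatives lay between 0.00518 and 0.107 for LOC_Os08g04440 in ARF4, the call lost least often, and between 0.0309 and 0.192 for LOC_Os01g12750 in ARF4, the call lost most often.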

How the data were processed

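The authors deposited one table of FPKM values, 1 column per library, rounded to 2 decimals. The submitters' processing notes name Bowtie 0.12.2 and mm8, a mouse genome that cannot apply to rice genes; no rice build, annotation or quantifier is given in the sources used here. Groups and replicate numbers came from sample titles. The 52 genes and all lists were chosen with earlier results of these data known. Genes with at least 1 FPKM in at least 3 of 9 libraries (23385) were fitted as log2(FPKM + 1) in one limma model (limma 3.58.1, R 4.3.3, mean-variance trend) with a mean per group and a shared spread, adjusted by Benjamini-Hochberg over all genes tested. The fit was also run on simulated data with independent noise, the same spread in all groups and changes in GSK5 alone. That setting is simpler than these libraries, whose spread differed between groups. Because FPKM values hold no read counts, count models were left aside. Genes were named by rule: the 10 of highest WT mean, the 8 of lowest ratio of highest edited to lowest WT value, genes called between edited genotypes, runs, and those beside the threshold; others were picked after their values were seen, as stated. Tables and plots used Python 3.11.15, pandas 2.3.3, numpy 2.4.6, scipy 1.17.1 and matplotlib 3.10.9. Alternatives changed the pseudocount, filter, scaling, rule, samples in the fit and libraries.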

Additional observations from a re-analysis of the deposited data

How the results depend on the processing

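The rule gave 6 genes when the edited values had to stay under 0.25 times the lowest WT value, and 0 under 0.1 times. It gave 570 when group means replaced extremes. Leaving out single libraries, which can only loosen the rule, gave 53 to 218. With median-of-ratios scaling the rule gave 56 genes, 50 of the 52 among them. No run of genes was found with gaps up to 1000 locus numbers, and 9 genes stood in one with 2500. With log2(FPKM + 0.1) the median log2 changes were -2.52 in GSK5 and -2.79 in ARF4, with log2(FPKM + 5) -1.35 and -1.53, and without single libraries -2.27 to -1.83 and -2.57 to -1.97. GSK5 against ARF4 called 69 genes with log2(FPKM + 0.1), 220 without a filter, 205 when fitted to these 2 groups alone (1 of the 52 genes) and 2 to 479 without single libraries (0 to 2 of the 52). Genes called lower in ARF4 against WT numbered 274 without a filter, 18 when fitted to its 2 groups alone and 54 to 1756 without single libraries, against 472. In GSK5 against WT they numbered 23 to 1092 without single libraries, against 164. With the replicate number as a block the counts were 30 in GSK5 against ARF4, 61 lower in GSK5 and 106 lower in ARF4, and still 0 of the 52 genes between edited genotypes. Deviations of same-numbered libraries correlated between -0.349 and 0.083. The labels do not say whether same-numbered libraries share more than a number, and these correlations cannot decide it. No log2 change that was rerun changed direction. For the 52 genes against WT, the rule left no pseudocount or left-out library able to turn it. Their unchanged direction is therefore no sign of stability. The rule did not bind GSK5 against ARF4 or the neighbours in this way. By gene, the reruns covered the genes named by rule, those with an unadjusted limma p under 0.05 in GSK5 against ARF4, and the called neighbours. Chromosome shares, the order of the WT libraries and the medians of neighbours were not rerun. Median-of-ratios scaling moved the median change of all genes in GSK5 against WT from 0.11 to 0.01. Absolute depth is unknown, which limits values near 0.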

Other observations

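Read separately, the rule was met by the GSK5 libraries in 117 genes and by the ARF4 libraries in 160, so that the 52 genes were 44.4% and 32.5% of these sets, which share their WT libraries. The mirrored rule, with every edited library at 2 FPKM or more and every WT library under 0.5 times the lowest edited one, was met by 73 genes. Of those, 7 (9.59%) were on chromosome 3 and 10 (13.7%) on chromosome 11, where 15 and 1 of the 52 genes stood. In the stretch of chromosome 3 from LOC_Os03g14630 to LOC_Os03g24930 the mirrored rule was met by 1 gene. None of these differences in placement was tested.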
